A study of Junonia coenia with 38 samples.

Results

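In the growing wings of Junonia coenia, the buckeye butterfly, 29 of 19234 counted gene models were high in the last larval instar, low in the prepupa, high again 72 h after pupation and low in the late pupa. They were chosen by these very levels. Counts were divided by a size factor for each library (the median of ratios of DESeq, over the 10830 models with a count in every library), and the result is called the normalised count. A member had a mean of at least 50 normalised counts over the 6 libraries of the 5th instar and over the 6 of 72 h, and the lower of these means was at least 4 times the higher of the prepupal and late pupal means. The 5th instar and 72 h means lay within 4-fold of each other. In the prepupa, the hindwing was below 2 times the forewing in at least one of the replicate numbers 1, 2 and 3. Stage levels of these models are therefore given as a description, with no test. Tests were kept for the wing differences of the larva, of 72 h and of the late pupa, which no limit of the choice compared. The stage limits used means over both wings, so a model could pass them through the wing where it was higher.

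The 24 libraries were made from whole wings, with 3 libraries each of hindwing and forewing per stage. The stages were the larval 5th instar, the prepupa, the pupa at 72 h and a late pupa. One label gives the last stage as 6 days after pupation and another as day 7. All animals were raised at about 27C, and no genotype, treatment or sex is given for them. The labels do not say whether replicates came from separate animals, so p-values measure the spread between these libraries, which may in part be technical.

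In the caterpillar the butterfly wing is an internal epithelial disc that grows and receives its pattern. It everts and lays down pupal cuticle around pupation, and during the pupal stage its cells form the scales and the adult cuticle, then the pigments. Pulses of the moulting hormone ecdysone time these steps, and many insect genes rise and fall more than once as pulses come and go. Models carry positions and no gene names here, so roles cannot be given for the members. Each model is named by contig, first and last position, and afterwards by its contig. Which cells of the wing held the transcripts is unknown, and fewer cells of a type cannot be told apart from less RNA per cell.

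Total counts ran from 5795618 to 21284939 per library. Size factors lay between 0.416 and 3.46. At 72 h the libraries numbered 3 stood apart in both wings. Their correlation with the other replicates of their group (log2 CPM over 13282 models) was 0.896 to 0.919, against 0.929 and 0.944 between numbers 1 and 2. No replicates of a group were alike within sampling noise (chi-square per degree of freedom of at least 30.1). Hindwing and forewing of the same stage and number deviated together. Values at 72 h without the pair numbered 3 use size factors of the other 22 libraries.

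Summed over the members, larval hindwings gave them 0.789% ± 0.0344 (SD, n = 3) of all counts and larval forewings 0.745% ± 0.0780. Prepupal hindwings gave 0.0232% ± 0.00433 and prepupal forewings 0.0185% ± 0.00278. At 72 h the shares were 0.303% ± 0.163 in hindwings and 0.482% ± 0.319 in forewings. Number 3 was highest there, at 0.489% in the hindwing and 0.849% in the forewing, while numbers 1 and 2 had 0.191% and 0.229% in hindwings and 0.267% and 0.331% in forewings. Late pupal hindwings gave 0.0189% ± 0.00211 and late pupal forewings 0.0175% ± 0.000900. These shares are of library totals and use no size factors, so the steps between stages are relative to that scaling. On library totals the median log2 ratio of 72 h to 5th instar over all 13282 models was −0.98, against 0.03 with size factors. The sums are also carried by few models. Without 000091F and 000011F, the 2 members with the highest lower high mean, the larval shares were 0.428% ± 0.0200 in hindwings and 0.338% ± 0.00889 in forewings, and those at 72 h 0.227% ± 0.0939 in hindwings and 0.341% ± 0.223 in forewings. In 23 of the 29 members every one of the 12 libraries of the 5th instar and 72 h lay above every one of the 12 of the prepupa and the late pupa. This held for 4.04% of the 7158 models with means of at least 50 at both high stages, and since the choice of members used these levels nothing is read from the count.

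The ratio of the lower high mean to the higher low mean, called the trough ratio here, ran from 4.12 to 138 with a median of 5.63. It was 10 or more in 8 members and 50 or more in 4. The late pupal mean was below the prepupal mean in 18 members and above it in 11. The 72 h mean was above the 5th instar mean in 13 members and below it in 16. With counts scaled by library totals alone the numbers above and below became 6 and 23. That scaling moved the median log2 ratio of 72 h to 5th instar over all 13282 models to −0.98, against 0.03 with size factors and −0.10 with TMM, so the order of the high stages is relative to the scaling. Without the 72 h pair numbered 3, 10 members were above and 19 below, and the order turned in 5 members (000011F, 000023F, 000085F, 000121F and 000316F). The trough ratios then ran from 2.59 to 119 with a median of 5.39, and 7 of the 29 moved by over 1.5 times. On the map of normalised counts by library, the bright columns of the 5th instar and 72 h alternate with dark columns of the prepupa and the late pupa.

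**Figure D1:**
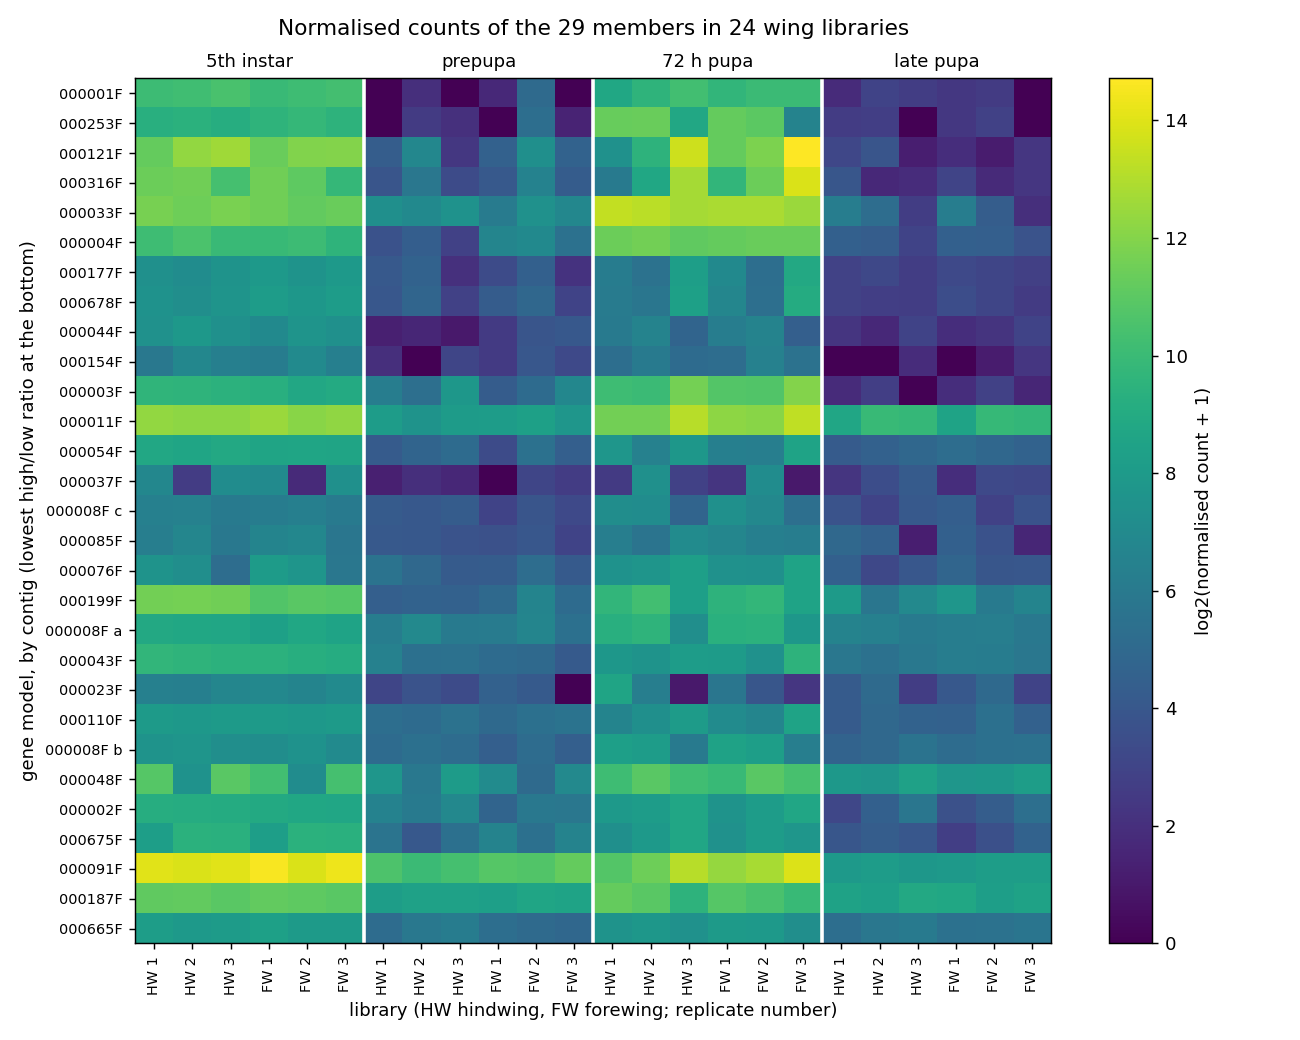
Normalised counts, as log2 of the count plus 1, of the 29 members (down the page, by trough ratio from 138 at the top to 4.12 at the bottom) in 24 libraries, with hindwing left of forewing in each stage. The 3 members on contig 000008F are marked a, b and c in order of position. Rows are bright in the 5th instar and at 72 h and dark in the prepupa and the late pupa, with single dark cells within bright stages in rows such as 000037F.

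The deepest troughs belonged to 4 models, with trough ratios of 138 in 000001F, 86.6 in 000253F, 72.2 in 000121F and 63.0 in 000316F. Without the 72 h pair numbered 3 they were 119 in 000001F, 86.7 in 000253F, 31.0 in 000121F and 29.9 in 000316F. Values by library are normalised counts in the order of replicates 1, 2 and 3. The model 000001F:2120028-2128738 had 1094, 1164 and 1455 in hindwings and 1013, 1139.6 and 1288 in forewings in the 5th instar, and 428, 745 and 1205 in hindwings and 815, 1042 and 1058 in forewings at 72 h. In the prepupa it had 0, 2.91 and 0 in hindwings and 2.30, 33.1 and 0 in forewings, and in the late pupa 2.55, 6.89 and 5.34 in hindwings and 4.31, 4.85 and 0 in forewings. Over the 6 libraries of a stage that was 15991 reads for the 5th instar and 31 for the prepupa, then 4619 for 72 h and 19 for the late pupa. The high and low stages did not overlap, and prepupal forewing replicate 2 stood above the other prepupal libraries.

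The model 000253F:615631-621643 was higher at 72 h, at a mean of 1676 against 707 in the 5th instar. Its larval libraries had 623, 685 and 582 in hindwings and 748, 877 and 725 in forewings, and its 72 h libraries 2468, 2569 and 444 in hindwings and 2457, 2023 and 95.5 in forewings. Replicate 3 was low at 72 h, and in both wings it was below every larval library. Prepupal values were 0, 4.85 and 3.14 in hindwings and 0, 39.3 and 1.71 in forewings, and late pupal values 5.10, 5.74 and 0 in hindwings and 4.31, 6.07 and 0 in forewings. Forewing replicate 2 again held most of the prepupal signal.

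Another pair of models, 000121F:1429333-1437883 and 000316F:494916-503557, combined deep troughs with wide variation at 72 h. Their ratios of 72 h to 5th instar were 1.88 and 2.00 with all libraries, and 0.429 and 0.475 without the pair numbered 3. The first of them had 2401, 5134 and 6340.5 in hindwings and 2653, 3909 and 3998 in forewings in the 5th instar, and 175, 721 and 12218 in hindwings and 2445, 3604 and 26860.2 in forewings at 72 h. Prepupal libraries had 19.4, 109.6 and 4.19 in hindwings and 22.95, 158 and 23.96 in forewings, and late pupal libraries 7.65, 13.8 and 1.34 in hindwings and 2.87, 1.21 and 3.94 in forewings. Within each wing the 72 h values were lowest in replicate 1 and highest in replicate 3. Hindwing replicate 1, the lowest 72 h library, lay close to the highest prepupal one.

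The same order of libraries at 72 h was seen in 000316F, with 64.5, 428 and 6755 in hindwings and 816, 2751 and 15001 in forewings. In the 5th instar it had 2703, 2896 and 1323 in hindwings and 2974, 2128 and 894 in forewings, lowest in replicate 3 of each wing. Hindwing replicate 1 at 72 h lay below prepupal forewing replicate 2, so the stages overlapped. Its prepupal values were 13.4, 55.3 and 9.42 in hindwings and 16.1, 91.99 and 18.8 in forewings, and its late pupal values 14.03, 2.30 and 2.67 in hindwings and 7.18, 2.43 and 3.94 in forewings. Both models were lower still in the late pupa than in the prepupa, with ratios of late pupal to prepupal mean of 0.0910 for 000121F and 0.159 for 000316F.

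The models 000033F:286546-291220 and 000004F:1685737-1700604 (the second chosen after its values were seen) were more even among replicates. The first had 3371, 2802 and 3428 in hindwings and 2906, 2359.8 and 2569 in forewings in the 5th instar, and 10543, 9215 and 6894 in hindwings and 7336, 7337 and 5858 in forewings at 72 h. All 6 libraries of 72 h were above all larval ones, in a ratio of means of 2.71 with size factors, 2.47 with TMM and 1.26 with library totals. In the prepupa it had 161, 124 and 178 in hindwings and 68.9, 170.5 and 111 in forewings, and in the late pupa 75.2, 36.7 and 5.34 in hindwings and 74.7, 19.4 and 2.96 in forewings. The span of 000033F overlaps another model, so that its reads may belong in part to that model.

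The second had 1136, 1474 and 997 in hindwings and 976, 1081 and 750.1 in forewings in the 5th instar, and 2685, 3076 and 2184 in hindwings and 2443, 2639 and 2565 in forewings at 72 h. Prepupal hindwings and forewings stood apart, with 11.9, 20.4 and 6.28 in hindwings and 103, 124 and 44.5 in forewings, and the late pupa had 21.7, 19.5 and 6.68 in hindwings and 21.6, 20.6 and 12.8 in forewings. The high stages lay above the low ones in every library. The plot of members by library shows these 6 models with the spread of each group.

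**Figure D2:**
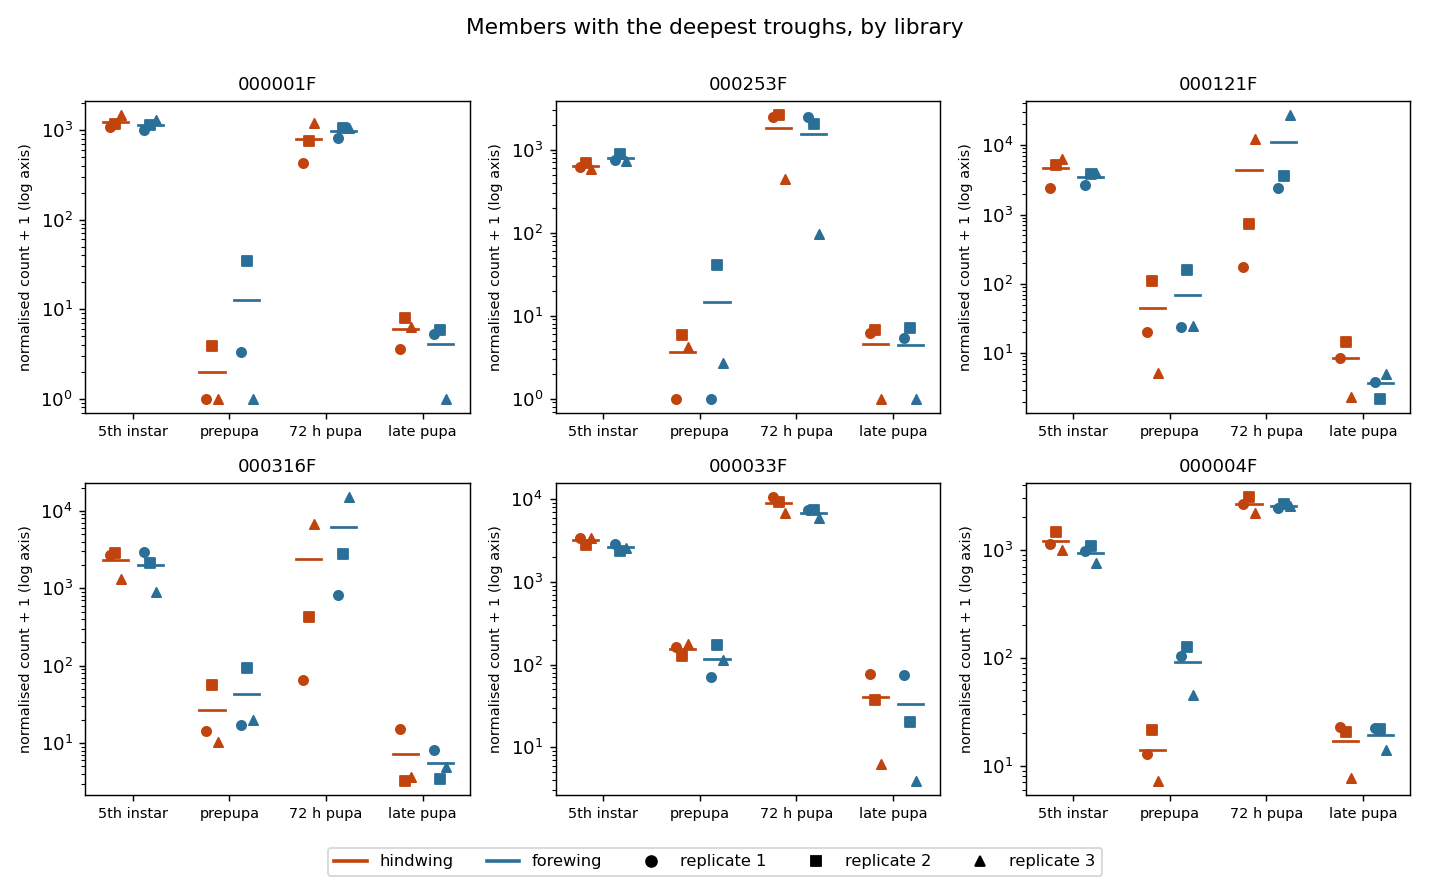
Normalised count plus 1 (log axis) of the 6 members with the highest trough ratios in each library, by stage, with hindwing (orange) left of forewing (blue), a symbol for each replicate number and a bar at the mean of 3 libraries. Values at 72 h span 65 to 15001 in 000316F but only 2184 to 3076 in 000004F, and prepupal forewing replicate 2 is the highest prepupal library in 5 of the panels.

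Of the abundant members, 000091F:500315-507328 had the most reads. It had 17002, 15174 and 16753 in hindwings and 23968, 14921 and 20979.9 in forewings in the 5th instar, and 1731, 2804 and 8882 in hindwings and 5283, 7049.7 and 15933 in forewings at 72 h. In the prepupa it had 1526, 1033 and 1332 in hindwings and 1834, 1679 and 2441 in forewings, and in the late pupa 246, 276 and 216 in hindwings and 244, 295 and 289.9 in forewings. Its trough was therefore shallow in the prepupa, where the mean stayed at 1641, and deep in the late pupa, at 261. Prepupal forewings 1 and 3 were above 72 h hindwing replicate 1, so the groups overlapped.

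The model 000011F:1678297-1681415 was the reverse, with a lower mean in the prepupa (259.7) than in the late pupa (740.1). Larval libraries had 5065, 4683 and 4755 in hindwings and 5868, 4375 and 4985 in forewings, and 72 h libraries 3082, 3054 and 8849 in hindwings and 4704, 4402 and 10310.4 in forewings. The prepupa had 284, 184 and 269 in hindwings and 280.0, 332 and 209 in forewings, and the late pupa 418, 975 and 889 in hindwings and 366, 921 and 871 in forewings. High and low stages did not overlap, and replicate 3 was highest at 72 h in both wings. The model 000187F:337217-339777 was almost flat between the low stages, at means of 339.7 in the prepupa and 372 in the late pupa, beside 2154 in the 5th instar and 1550.2 at 72 h. Its larval libraries lay between 1938 and 2339, while the 72 h libraries had 2427, 1946 and 739.8 in hindwings and 1802, 1428 and 958 in forewings, with replicate 3 the lowest of each wing.

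Members differed in the balance between the high stages. The highest ratios of 72 h to 5th instar were 3.29 in 000003F:493789-500516 and 2.71 in 000033F, and the lowest were 0.291 in 000199F:378760-386775 and 0.355 in 000044F:1702846-1707469. This order rests on the libraries numbered 3. Without them 000253F (3.39) and 000033F (2.98) were highest, 000003F had 2.17, 000091F (0.234) and 000054F (0.279) were lowest, 000199F had 0.370 and 000044F 0.469. The first of these, 000003F, had 805, 773 and 713 in hindwings and 620.2, 448 and 519 in forewings in the 5th instar, and 1139.6, 1045 and 3142 in hindwings and 1744, 1658 and 4034 in forewings at 72 h. It kept 73.2, 39.8 and 224 in hindwings and 18.4, 34.3 and 111 in forewings in the prepupa but only 2.55, 5.74 and 0 in hindwings and 2.87, 6.07 and 1.97 in forewings in the late pupa, 16 reads in all, the lowest ratio of late pupa to prepupa of the members (0.0383). Its span overlaps 000003F:498718-502255, which is highest in the prepupa at a mean of 5416. That model also had means of 1303 in the 5th instar and 2857 at 72 h. Part of the member's reads is therefore uncertain in the prepupa and at both high stages, and with them its ratio of 72 h to 5th instar.

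The 2 models lowest at 72 h relative to the larva over all libraries differed from each other in the low stages. The first, 000199F, had 3039, 3238 and 3002 in hindwings and 1671, 1968 and 1842 in forewings in the 5th instar, and 814, 1201 and 315 in hindwings and 729, 871 and 370.1 in forewings at 72 h. It was lowest in the prepupa, with 20.9, 23.3 and 23.02 in hindwings and 32.1, 99.4 and 34.2 in forewings, and higher in the late pupa, with 261, 52.8 and 123 in hindwings and 209.8, 66.8 and 99.6 in forewings, the highest ratio of late pupa to prepupa (3.49). Its span overlaps that of 000199F:375545-379068 by 309 bp. That model is highest in the late pupa, at a mean of 185, so part of the member's late pupal reads is uncertain. The other, 000044F, had a mean of 176 in the 5th instar and 66.1, 93.7 and 25.8 in hindwings and 73.1, 94.4 and 20.9 in forewings at 72 h. It was near its floor in both low stages, at means of 6.33 in the prepupa and 4.37 in the late pupa, on 26 and 22 reads.

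At 72 h, replicate numbers differed among models in general. Of the 7158 models, 15.5% had 1 number at least 2-fold from the mean of the others, in the same direction in both wings. Wing means at least 2-fold apart were seen in 1.80% of them. In 8 of the 29 members (27.6%), replicate 3 was at least 2-fold above the mean of numbers 1 and 2 in both wings, against 3.66% of the 7158 models with means of at least 50 at both high stages. In another 8 (27.6%) it was at least 2-fold below in both wings, against 6.72% of those models. None was 2-fold away in opposite directions in the wings (0.21% of the 7158). The members higher in replicate 3 were 000003F, 000011F, 000091F, 000110F, 000121F, 000177F, 000316F and 000678F. Those lower in it were the 3 models of 000008F, 000023F, 000037F, 000044F, 000199F and 000253F. These are counts over members that share libraries, with no test, and what sets replicate 3 apart was not tested. The choice used 72 h means that include these libraries, so nothing is read from the counts. Without both 72 h libraries numbered 3, 23 of the 29 still met the rule, and 000002F, 000043F, 000091F, 000110F, 000675F and 000678F did not. On the plot of replicate 3 against the others, most members run along the diagonal of the wings.

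**Figure D3:**
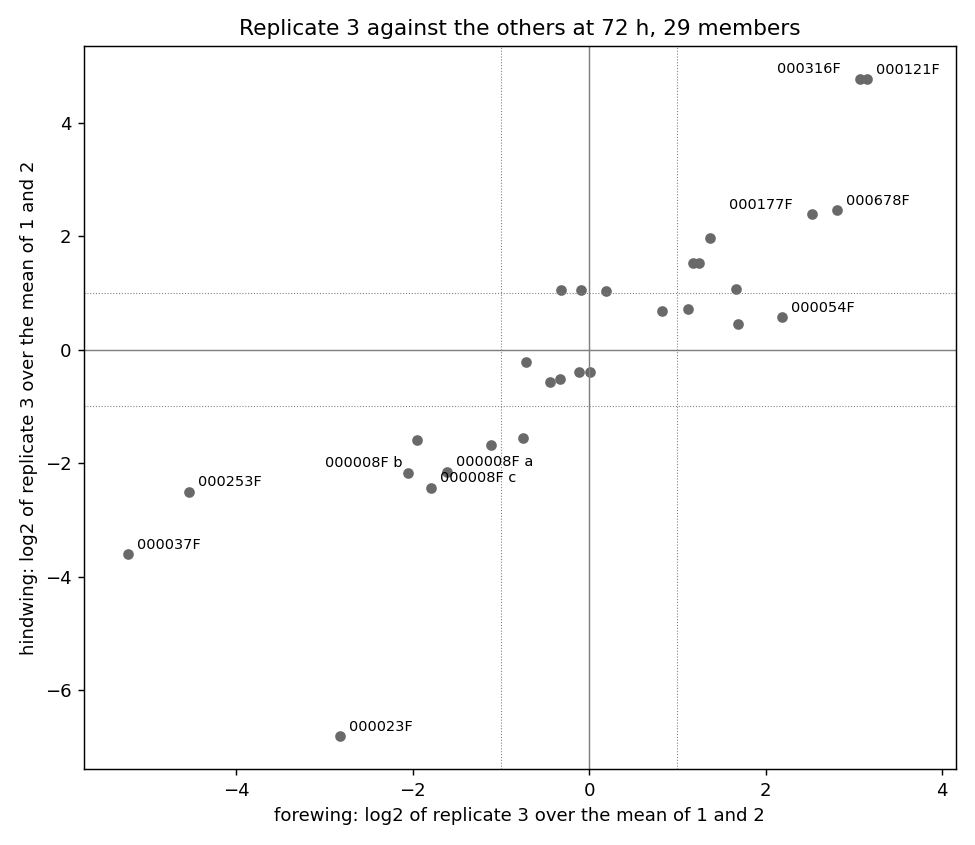
Each point is one of the 29 members at 72 h, placed by the log2 ratio of replicate 3 to the mean of replicates 1 and 2 in the forewing (across) and in the hindwing (up), after adding 1 to the normalised counts. Dotted lines mark 2-fold. Most points lie in the upper right and lower left corners or near the centre, with 000316F and 000121F highest (log2 of 4.77 in the hindwing) and 000023F lowest (−6.82 in the hindwing). Others pass 2-fold in a single wing, such as 000054F (2.18 in the forewing, 0.57 in the hindwing) and 000675F (−0.09 in the forewing, 1.06 in the hindwing).

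A run of neighbours formed one block of such members. The models 000008F:1162831-1173154, 000008F:1176645-1189054 and 000008F:1189409-1202190 lie side by side in 39360 bp, and no other members were neighbours or parted by a single model. The first had 469, 442 and 414 in hindwings and 329, 438 and 376 in forewings in the 5th instar and 614, 749.7 and 153 in hindwings and 636, 713 and 219.9 in forewings at 72 h. The middle one had 184, 204 and 152 in hindwings and 147, 181 and 131 in forewings in the 5th instar and 312, 281 and 65.00 in hindwings and 362, 298 and 78.6 in forewings at 72 h, and the last one 85.5, 88.98 and 66.8 in hindwings and 72.8, 80.2 and 62.6 in forewings and 148, 139 and 25.8 in hindwings and 165, 116 and 39.8 in forewings. Replicate 3 was the lowest 72 h library of its wing in all of them. In the low stages the first stayed between 42.8 and 120.3 normalised counts in the prepupa, and its late pupal libraries had 58.2 to 95.6.

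The ratios between members of the run kept to narrow ranges across libraries. Over the 12 libraries of the high stages, the last model had 0.392 to 0.513 times the normalised counts of the middle one and 0.163 to 0.261 times those of the first, after adding 1 to each and with no correction for length. The gap between the middle and the last model is 354 bp and that between the first and the middle one 3490 bp. Whether the 3 are separate genes or pieces of one transcript unit cannot be told from counts.

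A similar likeness linked models on separate contigs, 000177F:1045243-1050998 and 000678F:110118-118750 (chosen after their values were seen). The model on 000177F had 165, 143 and 188 in hindwings and 234, 191 and 251 in forewings in the 5th instar and 70.8, 45.7 and 308 in hindwings and 125, 39.6 and 478 in forewings at 72 h. That on 000678F had 179, 155 and 195 in hindwings and 281, 221 and 279 in forewings in the 5th instar and 67.7, 52.9 and 334 in hindwings and 108, 40.5 and 528 in forewings at 72 h. Replicate 3 was the highest 72 h library of each wing in both. The ratio of 000678F to 000177F stayed between 0.869 and 1.20 in the 12 libraries of the high stages, the second narrowest range of the 406 pairs of members after the neighbours on 000008F. Each is the last model listed on its contig, and reads from near-identical copies could be divided between them. No sequence was at hand to compare them, so their counts may not be independent of each other. The span of 000678F also overlaps another model on its contig.

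In the 5th instar, 5 of the members (17.2%) had 1 replicate number at least 2-fold from the mean of the others in the same direction in both wings, against 7.21% of the 7158 models. They were 000037F:1312382-1314428, 000048F:2292317-2303320, 000076F:1163376-1172477, 000316F and 000675F:73326-92359, all but 000316F chosen after their values were seen. The number that stood out was 2 for 000037F and 000048F, 3 for 000076F and 000316F, and 1 for 000675F. It was thus not one larval library pair that differed throughout. The choice used the 5th instar means, so nothing is read from the count of members here.

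The sharpest case was 000037F, which had 112, 5.12 and 144 in hindwings and 131, 2.30 and 166 in forewings in the 5th instar, and 4.72, 168 and 6.19 in hindwings and 3.78, 143 and 0.995 in forewings at 72 h. Numbers 1 and 3 carried the larval level and number 2 alone the 72 h level, each in both wings. In the low stages it had 1.49, 2.91 and 2.09 in hindwings and 0, 7.36 and 5.14 in forewings in the prepupa, and 3.83, 10.3 and 17.4 in hindwings and 2.87, 8.50 and 7.89 in forewings in the late pupa. High and low stages overlapped, and the stage means of 93.4 and 54.5 are averages of libraries far apart. Replicate numbers at different stages are different libraries, and nothing in the labels ties number 2 of one stage to number 2 of another.

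The model 000048F had 1844, 178 and 1938 in hindwings and 1232, 139.7 and 1338 in forewings in the 5th instar, and 1146, 1989.7 and 1188 in hindwings and 979.9, 1991 and 1373 in forewings at 72 h. Replicate 2 was the lowest of each wing in the larva and the highest of each wing at 72 h. In the prepupa it had 208, 58.2 and 273 in hindwings and 135, 33.1 and 122 in forewings, again lowest in replicate 2 of each wing, and in the late pupa 233, 204 and 337 in hindwings and 214, 223 and 294 in forewings. The model 000076F had 185, 151 and 37.4 in hindwings and 273, 204 and 55.7 in forewings in the 5th instar, where replicate 3 was lowest, and 181, 204 and 316 in hindwings and 170.2, 169 and 370.1 in forewings at 72 h, where it was highest.

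**Figure D4:**
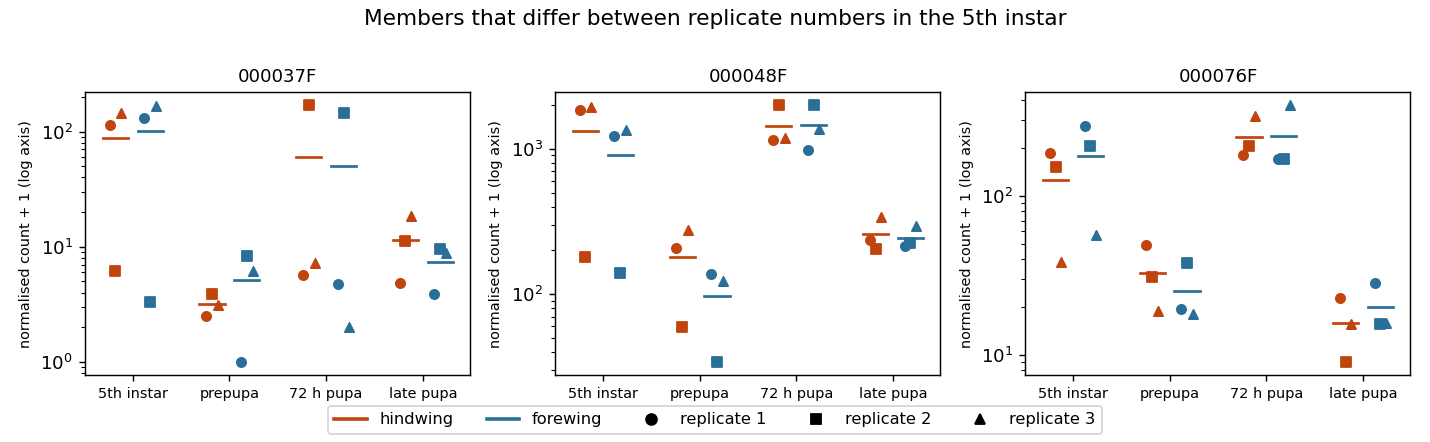
Normalised count plus 1 (log axis) in each library for 3 members that differ between replicate numbers in the 5th instar, by stage, with hindwing (orange) left of forewing (blue), a symbol for each replicate number and a bar at the mean of 3 libraries. The same number is low in both wings, for example replicate 2 of the 5th instar in 000037F, at 5.12 in the hindwing and 2.30 in the forewing.

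The remaining members had trough ratios between 4.12 and 8.05. The model 000665F:114684-121717, which had the lowest ratio, was even, with 5th instar libraries between 244 and 329.6, prepupal ones between 29.1 and 71.2, 72 h ones between 154 and 256 and late pupal ones between 38.2 and 65.4. The model 000023F:616880-623818 was even in the 5th instar, between 80.3 and 130.5, but at 72 h had 379, 76.9 and 1.03 in hindwings and 54.2, 14.4 and 3.98 in forewings. Hindwing replicate 1 carried most of that mean, and replicate 3 of both wings was at the level of the low stages, so the groups overlapped. The late pupa had 17.9, 33.3 and 5.34 in hindwings and 15.8, 31.6 and 6.90 in forewings.

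Another 6 members (000002F:26835-27410, 000043F:141145-150574, 000054F:1723355-1728757, 000085F:691330-697010, 000110F:934545-949732 and 000154F:573501-580951), all outside the rule for naming, kept every high library above every low one. Their 5th instar means ran from 84.3 (000085F) to 693 (000043F), and their 72 h means from 51.2 (000154F) to 307 (000043F). Prepupal means were 6.36 to 69.2, and late pupal means 1.30 to 60.2. The lowest, 000154F, kept 28 reads over the 6 prepupal and 7 over the 6 late pupal libraries. The model 000675F had a larval mean of 543 and a 72 h mean of 245, beside 56.3 for the prepupa and 14.8 for the late pupa, and its larval replicate 1 was low in both wings, at 300.4 in the hindwing and 309 in the forewing against 652 to 681 in the others.

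The wings of the 5th instar did not differ beyond 2-fold in any member, and fold changes between them ranged from −0.56 to 0.76 (log2, hindwing over forewing, from means of normalised counts plus 1). Such a difference was seen in 0.489% of the 7158 models. By edgeR's quasi-likelihood test on all 24 libraries, with Benjamini-Hochberg adjustment over 13282 models, 0 members were called at an adjusted p below 0.05, against 0.0376% of all models. An unadjusted p below 0.05 was seen in 0 members and in 359 of the 13282 models. With a replicate block, which compares hindwing and forewing of the same number, 0 members were called against 0.986% of all models. An unadjusted p below 0.05 was then seen in 7 of the 29 members and in 1634 of the 13282 models. The DESeq2 Wald test called 0 members as well. The nearest to a call was 000678F, lower in hindwings by a log2 fold change of −0.56 ± 0.12 (SE) in 3 of 3 pairs (edgeR adjusted p = 0.0501 with the block, 1 without it). Its span overlaps that of 000678F:106103-114095 by 3978 bp. That model had a larval mean of 178, beside 218 in the member, so part of the member's larval reads is uncertain.

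At 72 h, 4 members had wing means at least 2-fold apart, against 1.80% of the 7158 models. Without the pair numbered 3 the count was again 4, against 3.69% of those models. The unpaired test called 0 members and 0.00753% of all models, with 3 members and 512 of the 13282 models at an unadjusted p below 0.05. The DESeq2 Wald test called 0 members. With the replicate block 4 members were called, of which the hindwing was higher in 1 and lower in 3, against 2.7% of all models (1.54% higher, 1.15% lower). These 4 were 000023F, 000091F, 000121F and 000316F, all with large spread between replicate numbers. With means of a single wing, 000023F met the rule in the hindwing only and 000091F in the forewing only. In each this was the higher wing at 72 h, so their calls were favoured by the choice of members. Without the pair numbered 3 the block called 6 members, the same 4 with 000001F and 000003F, both lower in the hindwing. Calls over all models rose as well, from 358 of 13282 to 1184 of 13599.

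The model 000091F had 1731, 2804 and 8882 in hindwings and 5283, 7049.7 and 15933 in forewings at 72 h, lower in the hindwing in 3 of 3 pairs. Its log2 fold change was −1.28 ± 0.17 (SE; edgeR adjusted p = 0.00226) with the block and −1.10 ± 0.45 (adjusted p = 1) without it. The call with the block remained when each number of the 72 h pairs was left out in turn (edgeR adjusted p from 9.26e-05 to 0.0191). The unpaired value rests on the libraries numbered 3. It was −0.49 without forewing replicate 3 (edgeR adjusted p = 1), −2.09 without hindwing replicate 3 (adjusted p = 0.0135) and −1.49 ± 0.27 without both (adjusted p = 0.0193).

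The models 000121F and 000316F were likewise lower in the hindwing in 3 of 3 pairs, by log2 fold changes of −2.38 ± 0.41 and −2.39 ± 0.34 with the block (edgeR adjusted p = 0.0100 and 0.00314). In the unpaired fit the values were −1.34 ± 1.20 and −1.37 ± 1.16 (adjusted p = 1 for both), and with forewing replicate 3 left out of that fit they turned positive, at 0.51 and 0.41. That fit kept hindwing replicate 3, the other wing of the pair. Without both libraries numbered 3 the log2 ratios of the wing means (normalised counts plus 1) were −2.75 for 000121F and −2.85 for 000316F. The call of 000316F with the block remained whichever 72 h number was left out (edgeR adjusted p from 1.55e-06 to 0.0292), while that of 000121F ended without number 2 (adjusted p = 0.0624).

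The model 000023F was the one higher in hindwings, by 2.43 ± 0.44 with the block (edgeR adjusted p = 0.0133) and 2.67 ± 1.12 without it (adjusted p = 1). The unpaired value was 0.55 without hindwing replicate 1 and 3.99 without forewing replicate 1, and was called in neither fit. Hindwings were above forewings in 2 of 3 pairs, and number 3 had 1.03 normalised counts in the hindwing and 3.98 in the forewing. The block's call ended without number 1 or 2 of the 72 h pairs (adjusted p = 0.327 and 0.0681).

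How far the wing difference changed between the 5th instar and 72 h was tested as an interaction, which no limit of the choice compared. Of the members called below, 000003F and 000023F met the rule with hindwing means alone but not with forewing means alone. The unpaired edgeR fit called 0 members and 0.00753% of all models, with 0 members and 362 of the 13282 models at an unadjusted p below 0.05. The DESeq2 Wald test called 0 members. The block called 4 members, 1 where the hindwing gained on the forewing and 3 where it lost, against 0.858% of all models (0.399% and 0.459%). The log2 changes were 2.77 ± 0.53 (SE) in 000023F, −1.10 ± 0.23 in 000003F, −2.68 ± 0.55 in 000121F and −2.67 ± 0.45 in 000316F (edgeR adjusted p = 0.0344, 0.0492, 0.0467 and 0.0193 in this order). Of these, 000003F stood higher in larval hindwings in 3 of 3 pairs and lower in 72 h hindwings in 3 of 3 pairs. Part of its reads at both stages is uncertain, since its span overlaps another model. These calls depend on single pairs of libraries. With the block, 1 member was called without number 1 of the 5th instar or of 72 h, 0 without larval number 2 or 3 or 72 h number 2, and 6 without 72 h number 3. Over all models, 34 of 13577 and 64 of 13644 were called without number 1 of the 5th instar and of 72 h. Without 72 h number 3 it was 757 of 13599, against 114 of 13282 with all libraries.

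In the late pupa a wing difference could be sought in 19 of the members, which passed a filter on the late pupal libraries alone. The other 10 reached the test only through the stages where they were high, and nothing is read from them. In the fit of the late pupal libraries, edgeR called 0 of the 19 and 0 of 11384 models, with 276 models and 0 members at an unadjusted p below 0.05. In the fits of all 24 libraries 0 members were called unpaired (0.0301% of all models), with the block (0.459%) and by DESeq2.

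**Figure D5:**
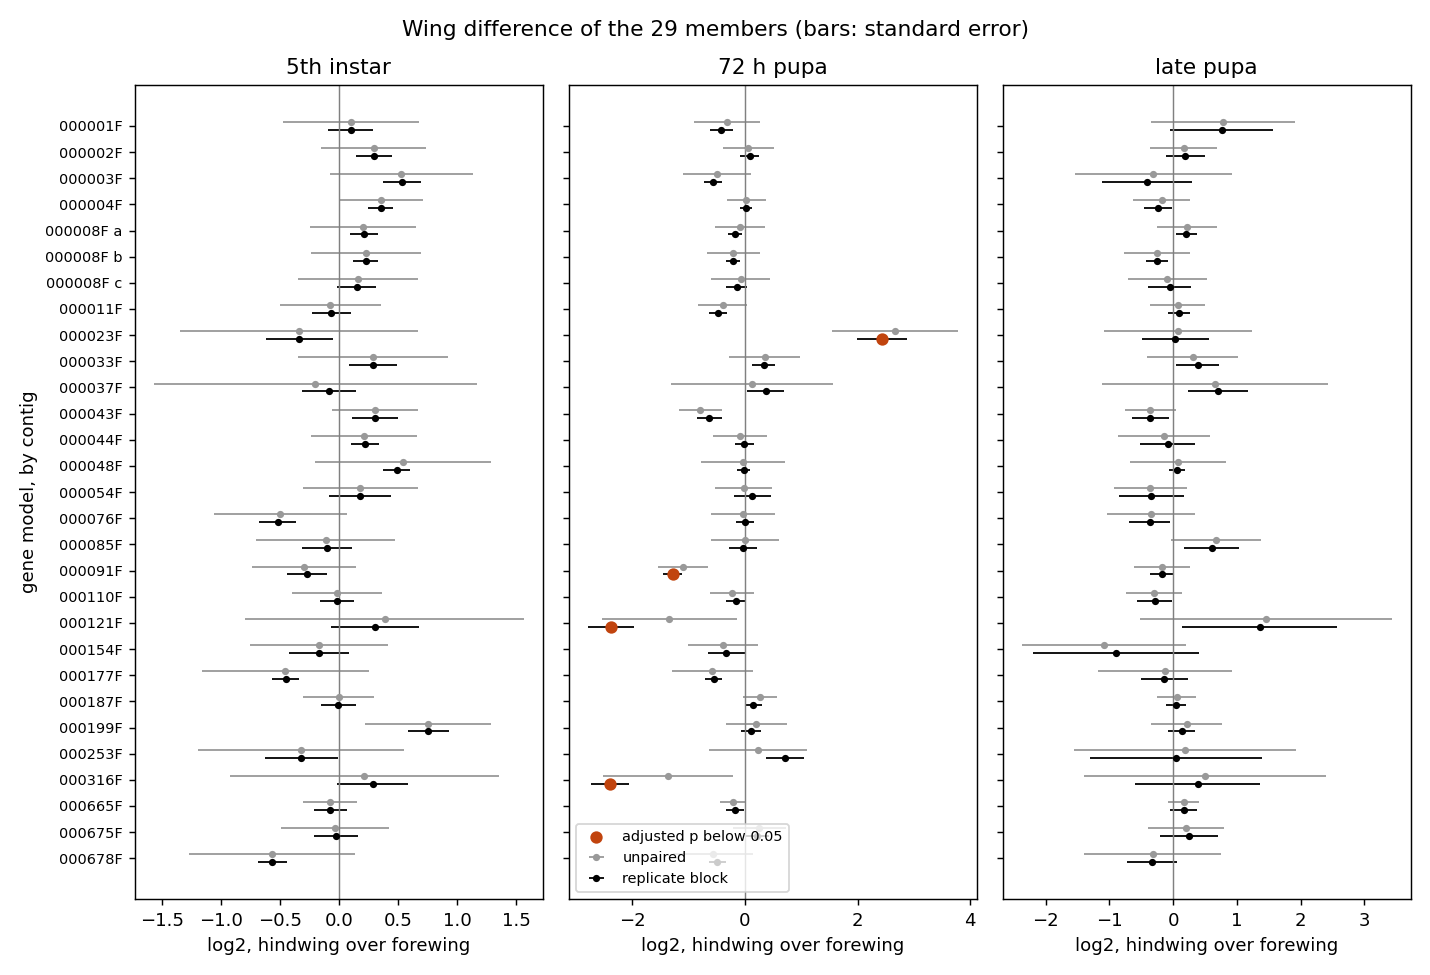
Log2 fold change of hindwing over forewing for the 29 members (down the page, by contig) in the 5th instar, at 72 h and in the late pupa, with bars of 1 standard error, from the unpaired edgeR fit (grey) and the fit with a replicate block (black, orange where the adjusted p is below 0.05). The horizontal scales differ. Most points lie within 1 of zero, and the orange ones are 000023F on the right and 000091F, 000121F and 000316F on the left at 72 h.

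In the prepupa the choice of members used the wings, so their difference is only described. In 000004F, whose means were furthest apart (log2 of −2.72 after adding 1), and in 000044F, with 1.49, 1.94 and 1.05 in hindwings and 4.59, 13.5 and 15.4 in forewings, every hindwing library was below every forewing library. The same held for 000091F and 000199F. In 000002F, 000043F and the last of 000008F, every hindwing library was above every forewing library. In 000001F and 000253F, the gap of the means came from forewing replicate 2. Among all models 10.3% were called between prepupal wings by the unpaired edgeR fit, and 2 of the members. With the block it was 30.9% of all models and 11 of the members (5 higher and 6 lower in the hindwing), and nothing is read from either count. Forewing replicate 2 had the highest prepupal value of the forewings in 20 of the members.

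The members lay on 27 contigs, with a median span of 7451 bp (576 to 19034), beside 7355 bp for the 7158 models with means of at least 50 at both high stages. The spans of 5 members (000003F, 000033F, 000199F, 000675F and 000678F) overlap another model, 17.2% against 21.8% of those models. Models 000121F, 000177F, 000316F, 000665F and 000678F are the last listed on their contigs, so 5 of 29 members (17.2%) were at the first or last place, against 5.41% of those models. Among the models next to a member, 3 that are no members had means at the high stages at least 2 times those at the low ones, of 31 with a mean of 50 or more at some stage, against 2.6% of 10776 such models. They were 000253F:602942-614788, at means of 24.2, 0.409, 67.7 and 0.415 in stage order, 000665F:105222-108906, at 77.7, 13.9, 61.1 and 16.5, and 000054F:1736101-1750970, at 50.01, 0.958, 6.31 and 0.405.

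The limits of the choice cut through a continuous range. Just inside the 4-fold limit lay 000665F (4.12), 000187F (4.17) and 000091F (4.23), and just outside it 000029F:1323459-1335741 (3.996), 000000F:1716720-1725068 (3.98) and 000000F:4966984-4973526 (3.91). A further 2 models met every limit on stages and failed the one on prepupal wings. The first, 000000F:1704611-1716487, is the neighbour of 000000F:1716720-1725068 and took most of its larval mean of 385 from hindwing replicate 1, at 2099, beside 10.7 to 85.3 in the other larval libraries.

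The second, 000037F:1258667-1260397, lies 5 models before the member on the same contig. It had 142, 1.18 and 177 in hindwings and 163, 1.38 and 175 in forewings in the 5th instar, and 0, 339 and 1.03 in hindwings and 0, 269 and 0 in forewings at 72 h. The same libraries as in 000037F:1312382-1314428 were high and low. In the prepupa it had 1.49, 0.97 and 2.09 in hindwings and 0, 0 and 0 in forewings, and with no forewing reads it could not pass the limit on prepupal wings. A further 18 models met the limits on level and trough but differed more than 4-fold between the 5th instar and 72 h. The mirrored pattern, high in the prepupa and the late pupa by the same limits without the one on wings, was met by 242 models, against 31 for the pattern described here without that limit.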

How the data were processed

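Poly-A RNA of whole wings was sequenced. The authors deposited 1 table of raw read counts per gene model for the 24 wing libraries, and all 24 columns were used. Columns headed d3 were taken as the 72 h libraries. TopHat, bedtools and DESeq2 appear in the submitters' processing notes. Not given in the sources used here are their roles, the build, the annotation and the use of strand. The other 14 libraries of the series, of which 4 have contradictory labels, were not analysed here.

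Members and lists were chosen with earlier results of these data known. Levels are counts over DESeq size factors. Wing contrasts were fitted with edgeR 4.0.16 in R 4.3.3 (filterByExpr with a minimum count of 10 and total of 15, leaving 13282 models and all 29 members; TMM; quasi-likelihood test; common biological coefficient of variation 38.7%), 1 mean per group (8 groups) and Benjamini-Hochberg adjustment. SE is the absolute log2 fold change over the square root of F. DESeq2 was version 1.42.0. The replicate block adds a term for each number within each stage. Deviations of log2 CPM from group means correlated in all 12 same-number pairs of wings (r from 0.517 to 0.765), so the numbers were taken to pair the wings. Between different numbers r was at most −0.138. Negative values there follow in part from taking deviations from means of 3 libraries, so they add no separate support.

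Members were named when among the 6 with the highest lower high mean, the 4 deepest troughs, the 2 highest and 2 lowest ratios of 72 h to 5th instar, the 3 nearest the 4-fold limit, the 2 widest ranges at 72 h, those called between the wings (with the block up to 2 each) or those in a run; 16 were. The other 13 were picked for the text with their values known. Total counts set the precision: members held 7 to 6954 reads over the 6 libraries of a low stage. The alternatives tried were other scalings, filters, limits, DESeq2, subsets of groups and leaving out libraries.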

Additional observations from a re-analysis of the deposited data

Results flagged for a closer look

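The change of the wing difference from the 5th instar to 72 h passed the test with the replicate block in 000003F:493789-500516 (−1.10 on the log2 scale), 000023F:616880-623818 (2.77), 000121F:1429333-1437883 (−2.68) and 000316F:494916-503557 (−2.67); none passed it in the unpaired edgeR fit. In 2 more members all 3 pairs of the 5th instar went one way and all 3 pairs of 72 h the other, a difference that was not tested further than in these fits, where neither was called. In 000008F:1176645-1189054, hindwings were higher in each larval pair and lower in each 72 h pair, and the mean log2 difference changed by −0.42. In 000253F:615631-621643, hindwings were lower in each larval pair and higher in each 72 h pair, with a change of 1.16, of which number 3 carried most (a 72 h difference of 2.20, against 0.00668 and 0.344 in numbers 1 and 2).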

How the results depend on the processing

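The number of members was 31 with TMM in place of size factors, 28 of them among the 29. Library totals alone gave 73 models, with 19 of the 29 among them. A trough ratio of at least 3 gave 57 and of at least 6 gave 14. Leaving out each replicate number in turn gave 23 to 33 models, sharing 18 to 25 with the 29, and leaving out both 72 h libraries numbered 3 gave 28, sharing 23. The forewing alone gave 28 and the hindwing alone 26. A set of 8 members (000001F, 000004F, the first of 000008F, 000011F, 000033F, 000121F, 000253F and 000316F) met the rule in each of these 8 scalings, omissions and single wings. With all but the 72 h pair numbered 3, the values of each member were an alternative added after seeing the data. The median trough ratio of the 29 ranged from 5.39 to 6.70. Of the wing comparisons, the calls in the 5th instar and the late pupa stayed at 0 members in every alternative run. At 72 h the count was 0 members unpaired and 4 with the replicate block (1 and 358 of 13282 models). It was 1 in the unpaired fit without both libraries numbered 3 (66 of 13599 models). With single libraries left out unpaired it was 0 to 1, the 1 without hindwing replicate 3 (131 of 13626 models). With the block, leaving out each 72 h number gave 3 to 6 members (an alternative added after seeing the data). All models called were then 158 of 13644 without number 1, 159 of 13612 without number 2 and 1184 of 13599 without number 3. For the change of the wing difference the count of members was 0 unpaired, 4 with the block and 0 with single libraries left out. With the block and a number left out it was 0 to 6 (1 without number 1 of either stage, 6 without 72 h number 3, where 757 of 13599 models were called). Without 72 h forewing replicate 3 the unpaired wing difference at 72 h turned to 0.51 in 000121F, 0.41 in 000316F, 0.80 in 000177F, 1.04 in 000678F and 0.038 in 000003F, and the change of the difference to 0.12 in 000121F and 0.20 in 000316F (the cause was not tested). With single libraries left out, the other end of the range was always without 72 h hindwing replicate 3, at −4.67, −4.72, −1.89, −1.92 and −1.21 in the same order of models, and for the change −5.05 in 000121F and −4.93 in 000316F. Each of these fits kept the other wing of the pair numbered 3. Fits of only the groups compared called 0 members in every comparison, with 19 members past the filter in the late pupa. The other 10 had too few late pupal reads for that filter, and their wing difference could not be assessed there at this depth.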
